A study of Mus musculus with 6 samples.

Results

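Interferon-stimulated genes (ISGs) are the genes that cells switch on when they sense interferon, and 49 of them were read from the RNA-seq of mouse embryonic stem cells (mESCs). The members were listed by name as well known ISGs, with no threshold on a measured value but with earlier results of these data known. All 49 were among the 28584 gene symbols of the deposited table. The mESC line came from C57BL/6 × 129S6 blastocysts and was first kept for 5 passages on mitomycin C-inactivated mouse embryonic fibroblasts (MEFs, a feeder layer that no longer divides) in medium with serum and LIF. It was then grown for 10 passages (P10) in the same serum-based medium without cytokine (-LIF-ESCs), with 1000 U/mL leukaemia inhibitory factor (LIF-ESCs) or with 10 ng/mL oncostatin M (OSM-ESCs), 2 libraries in each group. All 6 libraries therefore come from 1 cell line that had been exposed to LIF before, and the sources used here do not state whether feeder cells were carried into the 3 media or how many remained. LIF and OSM are related cytokines that act through gp130 and the transcription factor STAT3, and the study set -LIF-ESCs as the control. It describes these control cells as differentiated in shape, with strongly reduced pluripotency proteins.

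Interferons are secreted proteins that warn cells of infection. Type I interferon binds the receptor pair IFNAR1 and IFNAR2, the kinases JAK1 and TYK2 act on STAT2, and STAT2 joins IRF9 in a complex that binds the interferon-stimulated response element (ISRE) of ISG promoters. Type II interferon acts through IFNGR1 and IFNGR2 and the gamma-activated site (GAS) of promoters, and IRF1 is among its early targets. ISG products sense foreign RNA or DNA, block translation, degrade RNA, stop viruses at membranes, tag proteins with ISG15 or attack vacuoles of intracellular pathogens. Mouse embryonic stem cells are known for a weak interferon response, whereas fibroblasts respond strongly.

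Promoter sequence is shown first, since the 2 binding elements are what ISGs are known to be switched on through, and it is given for members that moved in opposite directions below. RefSeq promoters (GRCm38.p6, 250 bases before to 50 after each start site) were held for 37 of the 49 members, and Dhx58, Zbp1, Oas1b, Oas2, Usp18, Parp9, Parp14, Mx1, Mx2, Iigp1, Ifi27 and Rtp4 had no entry. The ISRE core was searched on both strands as GAAA, any 2 bases and GAAA again, and the GAS core as TTC, any 3 bases and GAA, which reads the same on both strands. A match is a match of letters and not a measured binding site, and overlapping matches were each kept. Stretches of 70 bases upstream of the start site, outside annotated exons, are given 5′ to 3′ on the strand of the gene, with matches in capitals. The first 4 come from genes that were higher with LIF than without cytokine, though Bst2, with a log2 fold change of 0.26, was not called. The next 4 come from genes that were called lower in the same comparison. In all but Irf1, both OSM-ESCs libraries were above both LIF-ESCs libraries.
Ifit1, chr19:34640764-34640833, plus strand: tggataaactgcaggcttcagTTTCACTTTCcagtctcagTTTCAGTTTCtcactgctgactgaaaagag
Ifit3, chr19:34583360-34583429, plus strand: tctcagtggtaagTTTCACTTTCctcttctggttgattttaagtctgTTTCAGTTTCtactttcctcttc
Isg15, chr4:156200851-156200920, minus strand: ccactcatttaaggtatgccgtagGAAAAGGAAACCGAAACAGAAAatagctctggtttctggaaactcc
Bst2, chr8:71537563-71537632, minus strand: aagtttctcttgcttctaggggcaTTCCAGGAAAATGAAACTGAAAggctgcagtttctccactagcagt
Gbp3, chr3:142559956-142560025, plus strand: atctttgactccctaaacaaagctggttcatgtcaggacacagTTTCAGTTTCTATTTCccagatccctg
Gbp7, chr3:142530226-142530295, plus strand: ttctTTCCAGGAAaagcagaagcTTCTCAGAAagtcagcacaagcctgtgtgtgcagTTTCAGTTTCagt
Igtp, chr11:58199486-58199555, plus strand: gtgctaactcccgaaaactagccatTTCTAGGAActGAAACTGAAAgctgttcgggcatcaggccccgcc
Irf1, chr11:53769893-53769962, plus strand: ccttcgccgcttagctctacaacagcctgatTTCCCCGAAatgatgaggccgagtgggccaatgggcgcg

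The ISRE core was found in the promoters of 21 of 37 members (56.8%), against 1079 of 27025 genes (3.99%) with a promoter of the same length. The GAS core was found in 9 of 37 members (24.3%), against 2582 of 27025 genes (9.55%). Of the 17 members with a promoter entry that were called higher with LIF than without cytokine (the call is defined below), 11 held an ISRE core and 3 a GAS core. Of the 7 called lower, 4 held an ISRE core and 4 a GAS core, and of the 13 not called, 6 held an ISRE core and 2 a GAS core. Irf1 held a GAS core and no ISRE core, and Gbp7 and Igtp held both. The numbers of genes are small, and no test was made of these counts.

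**Figure D1:**
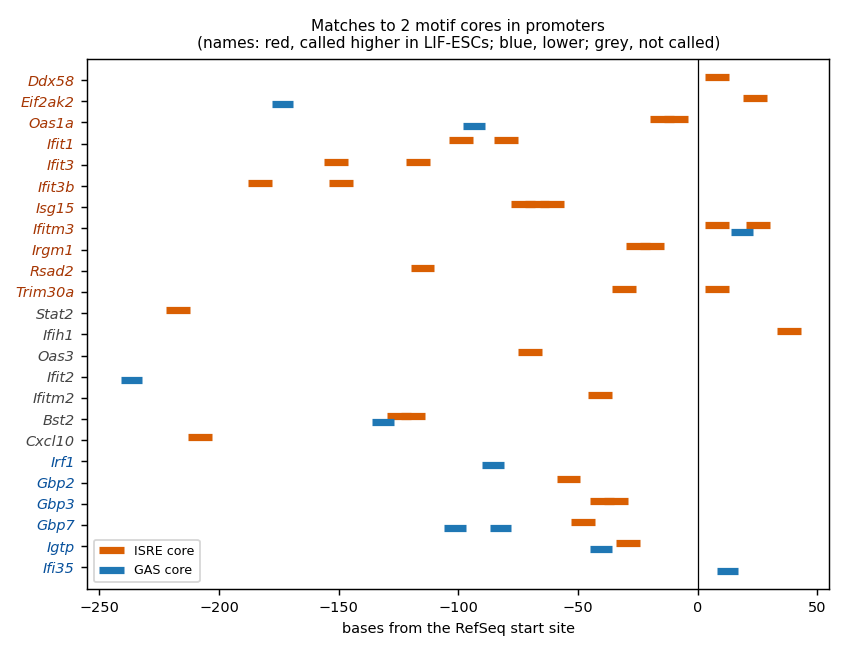
Matches to the ISRE core (orange) and the GAS core (blue) in the promoters of members that held at least 1, plotted by distance in bases from the RefSeq start site, with gene names coloured by their call in LIF-ESCs against -LIF-ESCs. Most matches lay upstream of the start site, and both cores were seen in members called higher and in members called lower.

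Levels are given in TPM (transcripts per unit of sequenced RNA), which corrects read numbers for gene length and scales each library to the same total, so that levels of different genes can be set side by side. Tests were made with limma after log2(TPM + 1), a scale on which genes at a low TPM appear to change less than they did. Adjusted p-values are Benjamini-Hochberg values over the 18556 genes that reached 1 TPM in 2 or more libraries. A call needed both an adjusted p under 0.05 and a change of 1 or more on the log2 scale, up or down. Of the 49 members, 48 were tested, and Mx1, which codes for a nuclear GTPase against influenza virus, stayed below the filter with at most 1.06 TPM. The p-values rest on the model, since with 2 libraries a group the smallest two-sided p of an exact permutation test is 0.333, and both -LIF-ESCs libraries serve in the comparisons with LIF-ESCs and with OSM-ESCs. The reads assigned to genes, worked back from TPM and exon lengths as described at the end, numbered 20712939 to 28994419 per library.

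ISGs did not move as 1 block in LIF-ESCs and OSM-ESCs. In LIF-ESCs, 24 of the 48 tested members were called higher than in -LIF-ESCs, 7 were called lower and 17 were not called. Of all genes tested, 13.3% were called higher and 8.09% lower in that comparison. In OSM-ESCs, 26 members were called higher than in -LIF-ESCs, 5 lower and 17 not called, where 14.2% of all genes were called higher and 7.86% lower. The 24 members higher in LIF-ESCs were also higher in OSM-ESCs, and Ifit2 and Rtp4 were called higher in OSM-ESCs alone. Irf1, Ifitm1, Gbp2, Gbp3 and Gbp7 were called lower in both groups, and Igtp and Ifi35 in LIF-ESCs alone. For the members the median log2 fold change over -LIF-ESCs was 0.96 with LIF and 1.30 with OSM, beside 0.17 and 0.18 over all genes tested. Rescaling the libraries by the median ratio brings the general shift near 0 by construction, and the members' medians were then 0.80 and 1.13.

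The members covered a wide range of levels. Their median was 12.8 TPM without cytokine, 21.9 with LIF and 28.8 with OSM, and the number above 100 TPM was 5, 7 and 8 in that order. The most abundant member was Ifitm2 in -LIF-ESCs, with a mean of 621 TPM, and Ifitm3 in LIF-ESCs and OSM-ESCs, with 911 and 1125 TPM. Summed over all 49 members, the level was 2921 and 2889 TPM in the -LIF-ESCs libraries, 3679 and 3664 with LIF and 4513 and 4543 with OSM. The summed level of the 3 groups did not overlap. Much of it came from Ifitm1, Ifitm2, Ifitm3 and Bst2, which together had 1774 to 1824 TPM without cytokine, 2220 to 2224 with LIF and 2606 to 2692 with OSM.

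**Figure D2:**
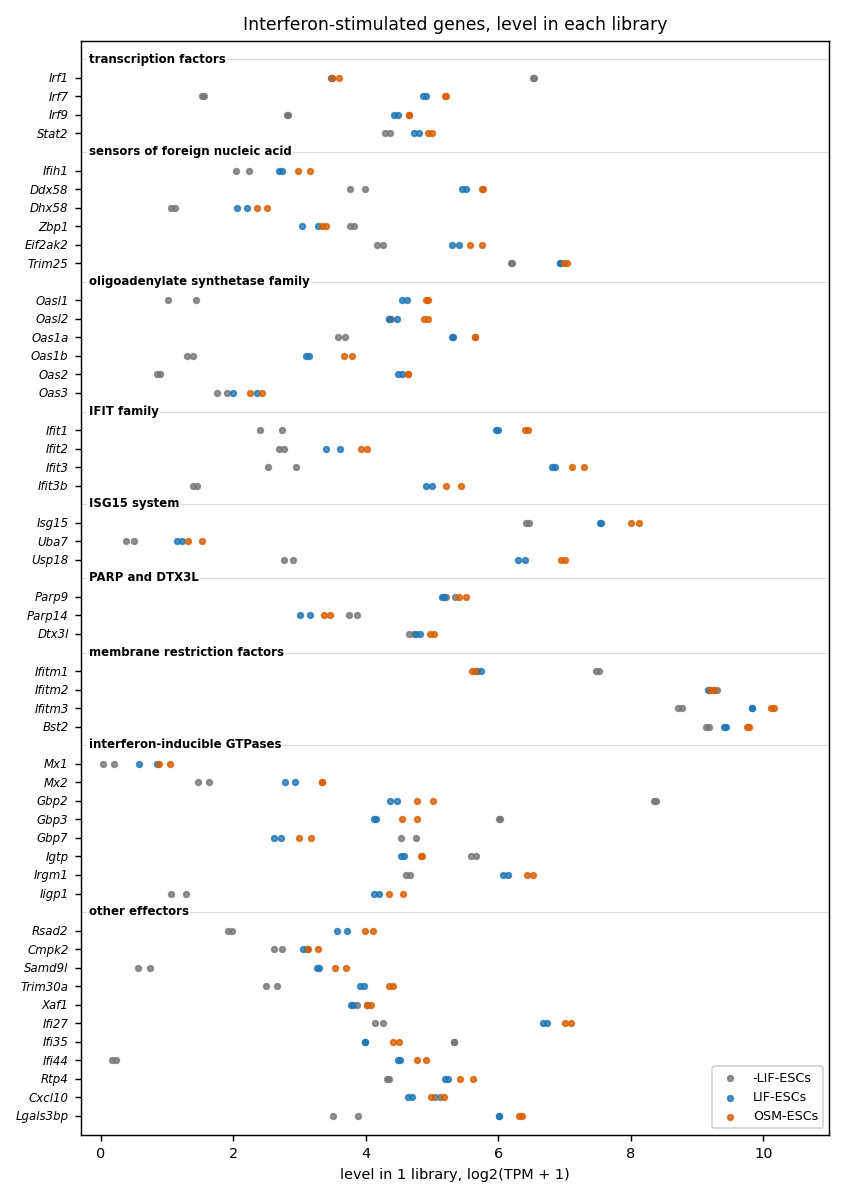
Level of each member in each library as log2(TPM + 1), grouped by role, with 2 points for each of -LIF-ESCs (grey), LIF-ESCs (blue) and OSM-ESCs (orange). In most rows the grey points lie to the left and the orange points furthest to the right, while in Irf1, Zbp1, Parp14, Ifitm1, Gbp2, Gbp3, Gbp7, Igtp and Ifi35 the grey points lie furthest to the right.

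Most markers of fibroblasts moved with the members. The summed level of 18 fibroblast markers, chosen because MEFs had been the feeder layer, was 127 to 136 TPM in -LIF-ESCs, 433 to 434 TPM in LIF-ESCs and 604 to 614 TPM in OSM-ESCs. Of the 16 that were tested, 13 were called higher in LIF-ESCs and the same number in OSM-ESCs against -LIF-ESCs, with none called lower. Of all genes tested, 13.3% were called higher with LIF and 14.2% with OSM. Col5a1 and Mmp2 went the other way. Both were lower with each cytokine at a limma adjusted p under 0.05, short of the size set for a call. Col5a1 had means of 42.9 TPM without cytokine, 23.9 with LIF and 36.1 with OSM. Those of Mmp2 were 39.3, 23.0 and 31.6 TPM in that order. Col1a2, a chain of collagen I, had 5.41 and 5.63 TPM without cytokine, 44.6 and 43.9 with LIF and 62.7 and 62.7 with OSM. Fap was at 0 in both -LIF-ESCs libraries and was the only one of the 18 at 0 there. In bulk RNA, fewer cells of a type and less RNA per cell cannot be told apart, and the part of fibroblast RNA in the ISG levels was not tested. The 11 macrophage and leukocyte markers in the table summed to 54.6 to 57.4 TPM in -LIF-ESCs, 126 to 129 TPM in LIF-ESCs and 120 to 126 TPM in OSM-ESCs, and their part in the ISG levels was not tested. Of the 6 that were tested, 1 was called higher and 1 lower in both comparisons with -LIF-ESCs. The higher one was Laptm5, a lysosomal membrane protein gene, with 5.69 and 5.42 TPM without cytokine, 98.8 and 98.6 with LIF and 96.3 and 91.1 with OSM. The lower one was Cd68, another lysosomal membrane protein gene, with 38.9 and 41.1 TPM without cytokine and means of 15.9 with LIF and 15.1 with OSM. Csf1r, the receptor of the macrophage growth factor M-CSF, stayed between 5.87 and 6.83 TPM in all libraries. Adgre1, Tyrobp and Lyz2 were at 0 in both control libraries and at no more than 0.602 TPM with a cytokine. The stem cell label was checked with 10 markers, which summed to 2393 to 2415 TPM without cytokine, 4486 to 4569 with LIF and 4083 to 4170 with OSM. Nanog alone among these 10 was lower with a cytokine, with 436 and 431 TPM without cytokine, 289 and 291 with LIF and 270 and 252 with OSM. Its log2 fold changes of -0.58 and -0.73, with limma adjusted p-values of 0.000144 and 6.37e-05, were under the size set for a call. The study instead reports Nanog RNA as higher with either cytokine than in -LIF-ESCs.

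**Figure D3:**
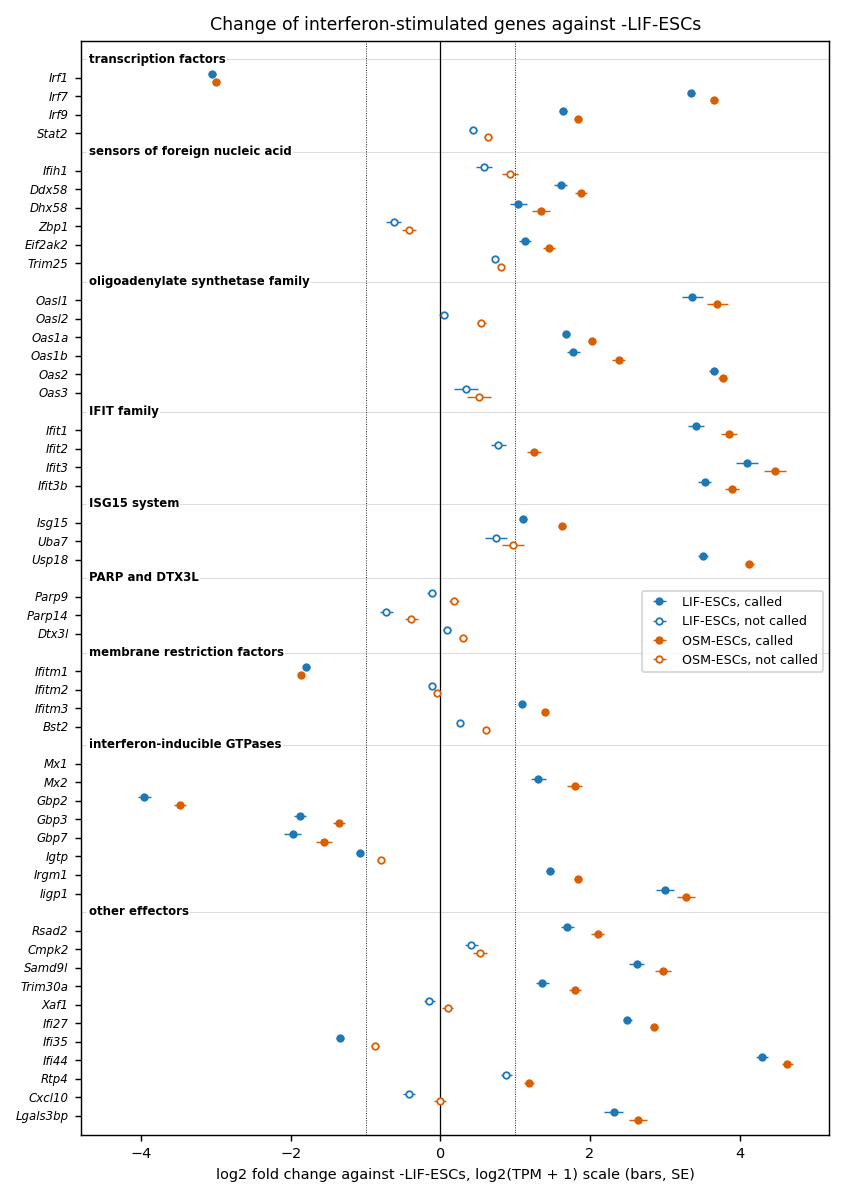
Log2 fold change of each tested member in LIF-ESCs (blue) and OSM-ESCs (orange) against -LIF-ESCs on the log2(TPM + 1) scale, with bars of 1 standard error, filled points for called members and dotted lines at a change of 1 in either direction. The 2 groups lie close together for each gene, with 24 members filled on the right in both and 5 filled on the left in both.

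Among the transcription factors, Irf7 and Irf9 rose with either cytokine and Irf1 fell. Irf7 (chr7:141262706-141266481), the factor that amplifies type I interferon production, had 1.94 and 1.88 TPM without cytokine, 29.0 and 28.2 with LIF and 36.1 and 35.5 with OSM. It rose by 3.35 ± 0.05 (SE) on the log2 scale with LIF and by 3.66 ± 0.05 with OSM, with limma adjusted p-values of 2.35e-06 and 1.97e-06. The 3 groups of Irf7 values did not overlap. Irf9, the DNA-binding partner of STAT2, had 6.07 and 5.97 TPM without cytokine, 21.4 and 20.4 with LIF and 24.1 and 24.1 with OSM, a log2 rise of 1.64 and 1.84. Stat2, the STAT particular to type I and type III interferon signalling, had 18.6 and 19.5 TPM without cytokine, 27.0 and 25.5 with LIF and 29.5 and 31.0 with OSM. Each of the 4 libraries with a cytokine was above both controls, yet the Stat2 log2 fold changes of 0.44 and 0.64 were under the size set for a call.

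Irf1 (chr11:53770014-53778374), the founding member of the interferon regulatory factor family and an early GAS target, had 91.2 and 92.2 TPM without cytokine, 10.2 and 10.1 with LIF and 10.2 and 11.1 with OSM. The control level was 9.02 times that of LIF-ESCs and 8.62 times that of OSM-ESCs. The log2 fold change was -3.05 ± 0.06 with LIF and -2.99 ± 0.06 with OSM, with limma adjusted p-values of 3.13e-06 and 2.92e-06. The LIF-ESCs and OSM-ESCs libraries of Irf1 overlapped. Gm17334, on the opposite strand, shares 3.4% of the exon length of Irf1.

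Among the sensors of foreign nucleic acid, 3 of 6 were called higher in both cytokine groups and none lower. Ddx58, which codes for the RNA sensor RIG-I, had 12.6 and 14.9 TPM without cytokine, 44.7 and 42.8 with LIF and 53.1 and 53.3 with OSM, with log2 fold changes of 1.61 and 1.88. Eif2ak2, the kinase PKR that stops translation on double-stranded RNA, had 18.1 and 17.0 TPM without cytokine, 41.3 and 38.2 with LIF and 53.1 and 46.5 with OSM, with log2 fold changes of 1.14 and 1.45. Dhx58, the regulator LGP2, had 1.16 and 1.08 TPM without cytokine, 3.16 and 3.59 with LIF and 4.69 and 4.11 with OSM. The log2 fold change of Dhx58 was 1.04 in LIF-ESCs, just past the call, and it was 0.97 without replicate 2 of LIF-ESCs. In each of these genes the 3 groups stood in the same order without overlap.

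The sensors that were not called differed in direction. Ifih1, the RNA sensor MDA5, had 3.1 and 3.69 TPM without cytokine, 5.47 and 5.66 with LIF and 7.87 and 6.87 with OSM, with log2 fold changes of 0.58 and 0.93. Its change in OSM-ESCs was 1.03 without replicate 2 of -LIF-ESCs and 1.02 without replicate 2 of OSM-ESCs, both past the call. Trim25, a ubiquitin ligase that activates RIG-I, ranged from 71.9 to 73.1 TPM in -LIF-ESCs and from 121 to 130 TPM with a cytokine. Zbp1, a sensor of Z-form nucleic acid, ranged from 12.5 to 13.1 TPM in -LIF-ESCs and from 7.22 to 9.56 TPM with a cytokine, with log2 fold changes of -0.63 and -0.42. Zbp1 was the one sensor whose control libraries were above all others.

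The oligoadenylate synthetases make a short nucleotide signal that activates RNase L against viral RNA. Of the 6 genes of the family, 4 were called higher with each cytokine. Oas2 had 0.794 and 0.845 TPM without cytokine, 22.4 and 21.4 with LIF and 23.9 and 23.8 with OSM, with log2 fold changes of 3.65 ± 0.06 and 3.77 ± 0.06. Oasl1, a member without synthetase activity that represses translation of Irf7, had 1.02 and 1.69 TPM without cytokine, 23.6 and 22.4 with LIF and 28.9 and 29.7 with OSM. Both genes were low in the control, where the Oasl1 values rest on 30 and 41 reads.

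Oas1a had 11.8 and 10.9 TPM without cytokine, 38.4 and 38.8 with LIF and 49.2 and 49.3 with OSM, with log2 fold changes of 1.68 and 2.02. Oas1b had 1.46 and 1.62 TPM without cytokine, 7.55 and 7.85 with LIF and 12.9 and 11.7 with OSM, with log2 fold changes of 1.78 and 2.38. Oasl2 differed from the others: it had 19.4 and 19.7 TPM without cytokine, 21.1 and 19.4 with LIF and 29.7 and 28.5 with OSM. The control and LIF-ESCs libraries of Oasl2 overlapped, and OSM-ESCs were above both. Oas3 ranged from 2.36 to 2.75 TPM in -LIF-ESCs and from 2.97 to 4.41 TPM with a cytokine and was not called. Reads that match several Oas copies could have been divided among them, and how the counting treated such reads is not given in the sources used here.

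The IFIT genes, whose products bind foreign RNA ends and block translation, had the highest median change of any role, at a log2 fold change of 3.47 in LIF-ESCs and 3.88 in OSM-ESCs. Ifit3 (chr19:34583531-34588731) had 4.76 and 6.71 TPM without cytokine, 115 and 111 with LIF and 156 and 138 with OSM. Its log2 fold change was 4.10 ± 0.14 and 4.47 ± 0.14, with limma adjusted p-values of 1.62e-05 and 1.19e-05. Its mean level was 19.7 times and 25.6 times that of -LIF-ESCs. Ifit1 had 4.29 and 5.66 TPM without cytokine, 62.9 and 61.7 with LIF and 86.3 and 83.6 with OSM, with log2 fold changes of 3.41 and 3.86. The promoters of both hold a pair of ISRE cores, as printed above.

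Ifit3b, a close copy of Ifit3, had 1.63 and 1.72 TPM without cytokine, 31.0 and 29.0 with LIF and 42.2 and 36.0 with OSM. Its values are uncertain to the extent that reads were shared with Ifit3. Ifit2 had 5.44 and 5.77 TPM without cytokine, 11.2 and 9.49 with LIF and 15.2 and 14.2 with OSM, with log2 fold changes of 0.78 in LIF-ESCs, not called, and 1.25 in OSM-ESCs, called. In all 4 genes the groups stood apart in the order -LIF-ESCs, LIF-ESCs and OSM-ESCs.

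ISG15 is a ubiquitin-like protein that is joined to other proteins by the activating enzyme UBA7 and removed by USP18, which also dampens signalling at the IFNAR2 receptor. Isg15 (chr4:156199424-156200818) had 84.2 and 87.3 TPM without cytokine, 185 and 187 with LIF and 255 and 279 with OSM. The log2 fold change of Isg15 was 1.11 ± 0.05 with LIF and 1.63 ± 0.05 with OSM. Usp18 (chr6:121245906-121270917) had 5.82 and 6.47 TPM without cytokine, 77.6 and 83.2 with LIF and 127 and 122 with OSM, with log2 fold changes of 3.51 ± 0.07 and 4.13 ± 0.07. Both genes rose in 2 steps, and no library of a lower group reached one of a higher group. Gm44148, on the opposite strand, shares 4.44% of the exon length of Usp18 and reached 289 TPM, and without strand information reads of the 2 genes cannot be told apart. Uba7 stayed low, at 0.304 to 0.418 TPM in -LIF-ESCs and 1.21 to 1.87 TPM with a cytokine. It was called neither way on the log2(TPM + 1) scale, but was called higher at a pseudocount of 0.1, with log2 fold changes of 1.59 and 1.95.

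**Figure D4:**
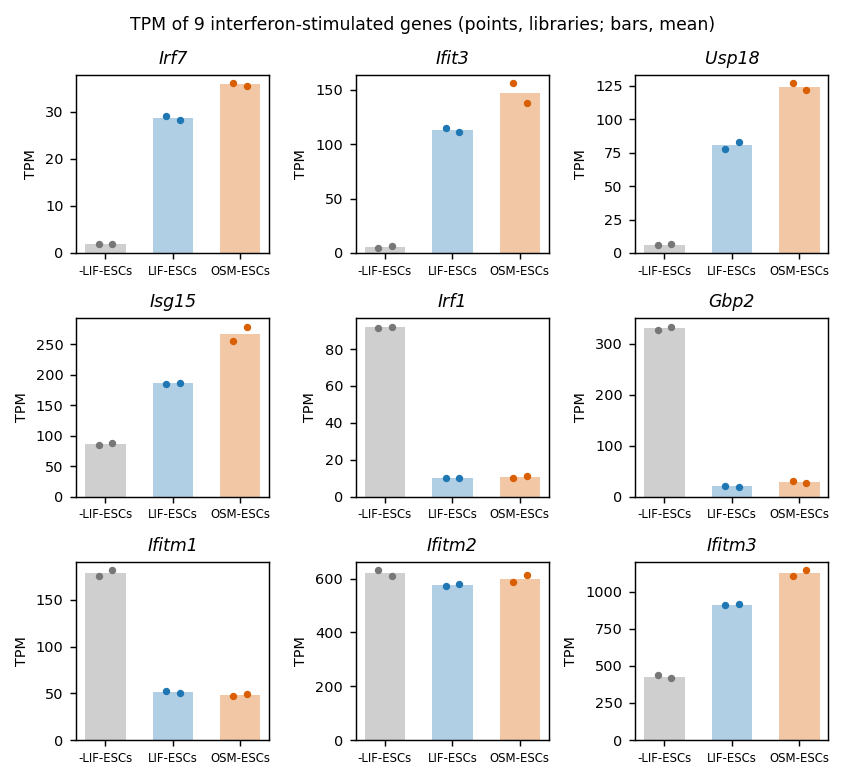
TPM of 9 members in each library (points) with the mean of each group (bars, starting at 0) for -LIF-ESCs (grey), LIF-ESCs (blue) and OSM-ESCs (orange). Irf7, Ifit3, Usp18, Isg15 and Ifitm3 rise from left to right, Irf1, Gbp2 and Ifitm1 are highest in -LIF-ESCs, and Ifitm2 is near 600 TPM throughout.

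The ADP-ribosyltransferase PARP9 and its partner ubiquitin ligase DTX3L, encoded by neighbouring genes on opposite strands, and PARP14 were not called in either comparison with -LIF-ESCs. Parp9 had 36.0 and 39.6 TPM without cytokine, 35.1 and 34.4 with LIF and 44.7 and 41.5 with OSM. Dtx3l had 25.5 and 24.2 TPM without cytokine, 25.9 and 27.2 with LIF and 31.6 and 30.2 with OSM. Parp14 had 12.4 and 13.5 TPM without cytokine, 7.02 and 7.92 with LIF and 10.0 and 9.34 with OSM. Parp14 was highest in the control and the other two in OSM-ESCs. Parp9 and Dtx3l share 458 bases of exon.

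The membrane restriction factors moved in different directions, even among close relatives. Ifitm1, Ifitm2 and Ifitm3 code for small membrane proteins that stop viruses from entering cells, and they lie near each other on chromosome 7. Ifitm1 (chr7:140967221-140969825), which also marks early germ line cells, had 176 and 182 TPM without cytokine, 52.1 and 50.0 with LIF and 47.4 and 49.2 with OSM, with log2 fold changes of -1.79 ± 0.04 and -1.87 ± 0.04. Ifitm3 (chr7:141009586-141010770) went the other way, with 436 and 419 TPM without cytokine, 908 and 914 with LIF and 1105 and 1145 with OSM and log2 fold changes of 1.09 ± 0.04 and 1.39 ± 0.04. Ifitm1 was thus 3.51 times as high in the control as in LIF-ESCs, while Ifitm3 was 2.13 times as high in LIF-ESCs as in the control. Ifitm2 ranged from 573 to 632 TPM over all 6 libraries and was not called. Of the exon length of Ifitm2, 40.9% is shared with Gm45717 on the same strand, so its level is uncertain. Bst2, or tetherin, which holds budding virus at the cell surface, had 581 and 562 TPM without cytokine, 691 and 675 with LIF and 867 and 885 with OSM. The 3 groups of Bst2 did not overlap, with log2 fold changes of 0.26 and 0.62 that were under the size set for a call.

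Interferon-inducible GTPases coat and break the vacuoles of intracellular pathogens, and their 7 tested members split into 3 called higher and 4 called lower in LIF-ESCs. Gbp2 (chr3:142620602-142638008) had 327 and 334 TPM without cytokine, 21.2 and 19.6 with LIF and 31.2 and 26.4 with OSM. The log2 fold change of Gbp2 was -3.955 ± 0.085 with LIF and -3.48 ± 0.085 with OSM, with limma adjusted p-values of 4.81e-06 and 5.89e-06. Its control level was 16.2 times that of LIF-ESCs and 11.5 times that of OSM-ESCs, the largest fall among the members. Gbp3 had 63.9 and 63.5 TPM without cytokine, 16.4 and 16.8 with LIF and 26.4 and 22.4 with OSM, with log2 fold changes of -1.88 and -1.35. Gbp7 had 22.0 and 26.0 TPM without cytokine, 5.13 and 5.59 with LIF and 8.02 and 6.96 with OSM, with log2 fold changes of -1.97 and -1.56. These 3 guanylate-binding protein genes shared 1 order, with -LIF-ESCs highest and LIF-ESCs lowest. They lie side by side on chromosome 3 and have similar coding sequence, and Gm43802 shares 11.3% of the exon length of Gbp7. Outside the members, Gbp4 was called lower with both cytokines. Gbp5, also on chromosome 3, went the other way, with means of 0.0657 TPM without cytokine, 0.716 with LIF and 1.19 with OSM, called in OSM-ESCs. Gbp6 and Gbp9 also had higher means with each cytokine and were not called.

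The immunity-related GTPases split, and Igtp shared the order of Gbp2, Gbp3 and Gbp7. Igtp had 49.9 and 47.3 TPM without cytokine, 22.0 and 22.9 with LIF and 27.4 and 27.7 with OSM, with log2 fold changes of -1.08, called, and -0.80, not called. Irgm1, a regulator of the other GTPases and of autophagy, had 23.4 and 24.4 TPM without cytokine, 69.8 and 66.1 with LIF and 91.3 and 85.6 with OSM, with log2 fold changes of 1.47 and 1.84. Iigp1, which disrupts the vacuole of Toxoplasma, had 1.44 and 1.07 TPM without cytokine, 17.4 and 16.5 with LIF and 22.6 and 19.3 with OSM, with log2 fold changes of 3.00 and 3.29. Igtp was highest in the control, and Irgm1 and Iigp1 were lowest there. Mx2, a dynamin-like antiviral GTPase, had 2.1 and 1.75 TPM without cytokine, 6.64 and 5.86 with LIF and 9.15 and 9.15 with OSM, with log2 fold changes of 1.31 and 1.80.

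Of the 11 other effectors, 6 were called higher in LIF-ESCs and 7 in OSM-ESCs. Ifi44 (chr3:151730922-151749960) had 0.173 and 0.123 TPM without cytokine, 21.9 and 21.4 with LIF and 28.9 and 26.2 with OSM. Its log2 fold change of 4.30 ± 0.08 in LIF-ESCs and 4.64 ± 0.08 in OSM-ESCs was the highest of the members, and its control level rests on 12 and 7 reads. Samd9l, a restriction factor of poxviruses, had 0.667 and 0.475 TPM without cytokine, 8.56 and 8.76 with LIF and 12.0 and 10.6 with OSM. Both were below 1 TPM in each control library.

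Ifi27, a mitochondrial protein gene, had 18.1 and 16.6 TPM without cytokine, 101 and 105 with LIF and 128 and 136 with OSM, with log2 fold changes of 2.50 and 2.86. Lgals3bp, a secreted galectin ligand, had 13.7 and 10.3 TPM without cytokine, 63.2 and 63.3 with LIF and 80.7 and 78.3 with OSM, with log2 fold changes of 2.32 and 2.64. Rsad2, or viperin, which makes a chain-terminating nucleotide, had 2.77 and 2.93 TPM without cytokine, 12.1 and 10.8 with LIF and 16.2 and 14.9 with OSM. In all 3 genes the OSM-ESCs libraries were above the LIF-ESCs libraries, and these above the control. Cmpk2, the kinase that supplies viperin and is its neighbour in the genome, ranged from 5.09 to 5.65 TPM in -LIF-ESCs and from 7.32 to 8.73 TPM with a cytokine and was not called.

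Trim30a, a TRIM protein that limits inflammatory signalling, had 4.6 and 5.33 TPM without cytokine, 14.7 and 14.0 with LIF and 19.3 and 20.2 with OSM, with log2 fold changes of 1.37 and 1.80. Rtp4 had 19.0 and 19.3 TPM without cytokine, 35.6 and 36.7 with LIF and 48.0 and 41.9 with OSM, with log2 fold changes of 0.88 in LIF-ESCs, not called, and 1.19 in OSM-ESCs, called. Both followed the order of most members. Ifi35 (chr11:101448407-101458698), whose product binds NMI, had 39.2 and 39.1 TPM without cytokine, 14.9 and 14.9 with LIF and 21.6 and 20.3 with OSM, with log2 fold changes of -1.34, called, and -0.87, not called. Of the exon length of Ifi35, 16.8% overlaps Gm11626 on the opposite strand, which reached 101 TPM.

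Cxcl10, a chemokine for T cells, had 33.9 and 32.0 TPM without cytokine, 23.9 and 25.0 with LIF and 35.3 and 30.6 with OSM. Xaf1, a pro-apoptotic ISG, had 13.5 and 15.2 TPM without cytokine, 12.7 and 13.0 with LIF and 15.8 and 15.1 with OSM. Neither was called against -LIF-ESCs, and in both the OSM-ESCs libraries overlapped the control while the LIF-ESCs libraries were below it.

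Between OSM-ESCs and LIF-ESCs, the ISGs were higher with OSM by a small and even margin. The ratio of the mean TPM of OSM-ESCs to that of LIF-ESCs had a median of 1.28 over the 48 tested members, from 0.946 for Ifitm1 to 1.59 for Oas1b, and was above 1 in 47. Over all genes tested, the fitted difference was positive in 9747 of 18556. No member reached a log2 fold change of 1 with an adjusted p under 0.05 in limma, where 6 of all genes were called higher (0.0323%). At an adjusted p alone, 6 members were higher and none lower, against 0.463% and 0.129% of all genes. At an unadjusted p under 0.05, 37 members were higher and none lower, against 9.8% and 5.5% of all genes. The libraries of the 2 groups did not overlap in 45 members that were higher in OSM-ESCs and in 1, Ifitm1, that was lower, against 26.3% and 20.9% of all genes. The median log2 difference was 0.34 for the members and 0.01 for all genes.

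The 6 members at an adjusted p under 0.05 came from 4 roles. Usp18 differed by 0.62 ± 0.07 on the log2 scale with a limma adjusted p of 0.0418, and Isg15 by 0.52 ± 0.05 with a limma adjusted p of 0.0358. Oasl2 differed by 0.50 ± 0.06 with a limma adjusted p of 0.0463, and Ifi35 by 0.47 ± 0.05 with a limma adjusted p of 0.0439. Bst2 differed by 0.36 ± 0.03 with a limma adjusted p of 0.03, and Ifitm3 by 0.30 ± 0.04 with a limma adjusted p of 0.0463. Bst2, Ifitm3 and Isg15 were among the most abundant members. These 6 adjusted calls depended on the fit, as did the number of all genes that passed. When the 2 groups were fitted alone, no member passed, and 0 of all 18556 genes did. In limma's voom on recovered reads 38 members passed, among 1446 of 18431 genes. The counts of members at an unadjusted p were between 33 and 40 under the alternatives that kept all 6 libraries. The share of all genes at that threshold was taken in the main fit alone.

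By role, the unadjusted threshold was passed by 4 of 4 IFIT genes, 3 of 3 of the PARP and DTX3L genes, 6 of 7 GTPases, 10 of 11 other effectors, 4 of 6 sensors, 3 of 4 transcription factors, 2 of 3 genes of the ISG15 system, 3 of 6 oligoadenylate synthetases and 2 of 4 membrane factors. The members that did not pass it were Irf1, Zbp1, Trim25, Oasl1, Oas2, Oas3, Uba7, Ifitm1, Ifitm2, Iigp1 and Cmpk2, with log2 differences from -0.08 to 0.34. The IFIT genes differed by 0.37 to 0.48, and the GTPases by 0.28 for Igtp to 0.53 for Gbp3. Gbp2, Gbp3 and Gbp7, called lower with both cytokines, and Igtp and Ifi35, called lower with LIF alone, were thus less low with OSM than with LIF. Irf1 differed by 0.06 ± 0.06, with OSM-ESCs and LIF-ESCs libraries that overlapped.

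**Figure D5:**
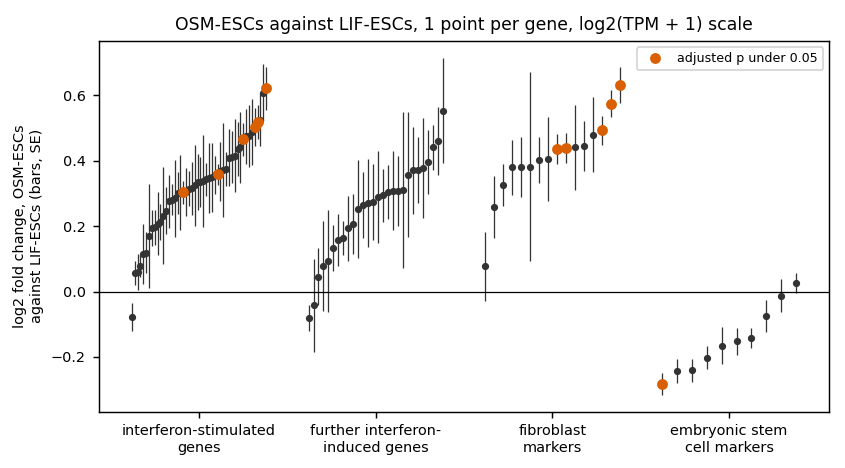
Log2 difference between OSM-ESCs and LIF-ESCs, 1 point per tested gene with bars of 1 standard error, for the ISG members, a further list of interferon-induced genes, fibroblast markers and embryonic stem cell markers, with genes at an adjusted p under 0.05 in orange. The first 3 lists lie almost wholly above 0 with medians of 0.34, 0.28 and 0.42, and the stem cell markers lie almost wholly below 0 with a median of -0.16.

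Fibroblast markers moved the same way between these groups. Their OSM-ESCs to LIF-ESCs ratio of mean TPM had a median of 1.37 over 16 tested markers, from 1.07 to 1.55, and all 16 were above 1. The ratio of 10 embryonic stem cell markers had a median of 0.895, and 1 of the 10 was above 1. The marker that moved most with OSM, the collagen I gene Col1a1, had 86.4 and 88.6 TPM with LIF and 134 and 138 with OSM, a log2 difference of 0.63. The part of these differences in that of the ISGs was not tested.

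The interferon pathway around the members was read from further lists. Of 12 interferon ligand genes, 4 were in the table and none passed the filter. Ifnb1, which codes for interferon beta, had 0 and 0 reads without cytokine, 5 and 4 with LIF and 7 and 5 with OSM. All 4 ligand genes together summed to no more than 1.24 TPM in any library. At this depth interferon transcripts were at the edge of detection, in numbers too small for a fold change.

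Of the 9 receptor and kinase genes, none was called in LIF-ESCs and 1, Ifngr2, in OSM-ESCs against -LIF-ESCs. By comparison, 13.3% of all genes were called higher and 8.09% lower with LIF, and 14.2% and 7.86% with OSM. Ifnar1, a chain of the type I receptor, had 15.8 and 17.0 TPM without cytokine, 16.0 and 16.2 with LIF and 16.4 and 15.9 with OSM. Ifnar2, the other chain, had 7.08 and 7.42 TPM without cytokine, 9.06 and 10.8 with LIF and 10.8 and 10.5 with OSM. The libraries of Ifnar1 overlapped in all 3 groups, and those of Ifnar2 were lowest in the control. Ifngr1, a chain of the interferon gamma receptor, had 7.66 and 7.21 TPM without cytokine, 9.25 and 9.31 with LIF and 9.18 and 9.24 with OSM. Ifngr2, its partner, had 5.36 and 5.55 TPM without cytokine, 9.36 and 9.37 with LIF and 12.2 and 12.0 with OSM, with log2 fold changes of 0.68 and 1.02. Of the type III receptor, Ifnlr1 had 2.47 and 2.47 TPM without cytokine, 1.58 and 1.67 with LIF and 0.97 and 1.18 with OSM. Il10rb, a chain it shares with the interleukin-10 receptor, had 1.95 and 2.17 TPM without cytokine, 3.11 and 2.62 with LIF and 3.64 and 3.42 with OSM.

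Of 13 signal transducers, factors and inhibitors, 1 was called higher and 3 lower with LIF, and again 1 and 3 with OSM. Over all genes, the shares called higher and lower were 13.3% and 8.09% with LIF and 14.2% and 7.86% with OSM. Stat3 had 22.4 and 20.4 TPM without cytokine, 43.0 and 42.6 with LIF and 44.9 and 44.1 with OSM, and was called higher in OSM-ESCs. Irf3, the factor that starts interferon transcription, had 8.67 and 8.96 TPM without cytokine, 16.2 and 14.1 with LIF and 16.7 and 16.9 with OSM and was not called.

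The inhibitors split. Socs3, a feedback inhibitor of gp130, had 37.2 and 39.3 TPM without cytokine, 78.9 and 77.2 with LIF and 54.1 and 50.6 with OSM, and was called higher in LIF-ESCs. Socs1, the inhibitor of interferon receptors, had 12.7 and 12.3 TPM without cytokine, 2.42 and 2.25 with LIF and 2.89 and 3.15 with OSM, with log2 fold changes of -2.02 and -1.75. Nmi, the partner of Ifi35, had 14.5 and 14.4 TPM without cytokine, 5.01 and 5.04 with LIF and 6.13 and 5.77 with OSM. Socs1 and Nmi were highest in the control, like Irf1 and Gbp2. Irf2, an antagonist of IRF1, had 4.31 and 4.84 TPM without cytokine, 0.951 and 1.24 with LIF and 1.86 and 1.86 with OSM, and was called lower in LIF-ESCs. Irf8, a factor of myeloid cells, had 1.4 and 2.01 TPM without cytokine, 0.408 and 0.424 with LIF and 0.309 and 0.28 with OSM, and was called lower in OSM-ESCs. Of 9 tested adaptors upstream of interferon, Myd88, the adaptor of Toll-like receptors, was the only one called. It was called higher with LIF and with OSM, as were 13.3% and 14.2% of all genes. Myd88 had 6.34 and 6.76 TPM without cytokine, 18.1 and 19.8 with LIF and 21.2 and 20.0 with OSM.

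In a further list of 28 interferon-induced genes, 11 were called up and 4 down with LIF, where 13.3% and 8.09% of all genes were. With OSM, 14 were called up and 4 down, where 14.2% and 7.86% of all genes were. Slfn2, a member of the Schlafen family, had 0.425 and 0.71 TPM without cytokine, 23.4 and 18.1 with LIF and 28.3 and 25.8 with OSM. Ifi204, a DNA-binding gene of the IFI200 family, had 1 and 2 reads in -LIF-ESCs, 18.1 and 16.2 TPM with LIF and 24.3 and 21.4 with OSM. Ifi203 of the same family had 0 reads in both control libraries, 8.23 and 8.18 TPM with LIF and 10.4 and 10.4 with OSM. It was at least 187-fold higher with LIF and at least 237-fold higher with OSM, against a floor of 3 reads per library. Among those that fell was Psmb8, a subunit of the immunoproteasome, with 77.2 and 70.6 TPM without cytokine, 6.31 and 7.86 with LIF and 10.0 and 10.1 with OSM. Psmb9, another such subunit, had 16.1 and 17.0 TPM without cytokine, 3.38 and 3.27 with LIF and 3.57 and 4.35 with OSM. Isg20, an RNA exonuclease gene, had 8.6 and 8.55 TPM without cytokine, 2.12 and 0.894 with LIF and 2.13 and 1.91 with OSM. The order of the groups in Psmb8 was that of Gbp2, Gbp3 and Gbp7.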

How the data were processed

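The authors purified poly-A RNA from mESCs at P10, trimmed reads (Trimmomatic, per the labels), mapped them to mm10 (Hisat2), assigned them to genes (featureCounts) and deposited a table of TPM. The strand setting, the annotation and the handling of reads with several matches are not given in the sources used here. Per the labels, 1 extraction note names another tissue, while the cell type is given as embryonic stem cells. The study's DESeq2 test needs counts and was not repeated.

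Here limma 3.58.1 (R 4.3.3) was run on log2(TPM + 1) with 1 mean per group and eBayes with a trend. The residual degrees of freedom were 3 (5.33 after moderation) and the median residual SD was 0.0862. Lengths of GENCODE M21 exons gave back whole reads, within 0.02 of a read, for 95.4% of values, so reads are stated where they limit a value. The fit was tested on simulated data. The members, roles and lists were chosen with earlier results of these data known. All members are named. Of the pathway lists, 1 gene was left out and is not reported here, and genes without values in the text enter the counts. Values in every library are given for members called against -LIF-ESCs or at an unadjusted p under 0.05 between OSM-ESCs and LIF-ESCs, and for Irf3, the receptors and the 3 called genes of each pathway list with the largest change in each direction. The replicates are separate libraries that the study calls biological. Promoters came from RefSeq and tables and plots from pandas 2.3.3 and matplotlib 3.10.9 in Python 3.11.15.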

Additional observations from a re-analysis of the deposited data

Results flagged for a closer look

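Of the members, 6 differed between OSM-ESCs and LIF-ESCs at a limma adjusted p under 0.05, which tests whether their response to OSM and to LIF, with the -LIF-ESCs libraries shared, was of another size. The log2 differences were 0.622 for Usp18, 0.519 for Isg15, 0.503 for Oasl2, 0.466 for Ifi35, 0.359 for Bst2 and 0.304 for Ifitm3, with both OSM-ESCs libraries above both LIF-ESCs libraries in each. Ifi35 and Oasl2 stand out among them for their order over the 3 groups. Ifi35 was called lower in LIF-ESCs against -LIF-ESCs (log2 fold change of -1.34). In OSM-ESCs (-0.87) Ifi35 was short of the size set for a call, at a limma adjusted p of 6.41e-05. It was called lower there on rescaling by the median ratio (-1.07) and with voom (-1.04), so the call in LIF-ESCs alone depends on the processing. Oasl2 was near its control level in LIF-ESCs and above it in OSM-ESCs.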

How the results depend on the processing

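The counts of members called higher or lower stayed within 1.5 times of the values above under every alternative run, with 20 to 25 higher in LIF-ESCs and 25 to 28 in OSM-ESCs. The median log2 fold change against -LIF-ESCs moved to 1.10 with LIF and 1.45 with OSM at a pseudocount of 0.1, to 1.09 and 1.39 with a filter of 5 TPM, to 0.80 and 1.13 on rescaling by the median ratio and to 0.88 in LIF-ESCs without a filter. With 1 replicate left out it ranged from 0.93 to 0.99 in LIF-ESCs, from 1.24 to 1.33 in OSM-ESCs and from 0.29 to 0.38 between OSM-ESCs and LIF-ESCs. A library left alone in its group was then assumed to vary like the others. Rescaling ended the calls of Dhx58, Eif2ak2, Isg15 and Ifitm3 in LIF-ESCs and of Rtp4 in OSM-ESCs, at log2 fold changes between 0.90 and 0.99. It added a call of Ifi35 as lower in OSM-ESCs, at -1.07.

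Members that were not called changed sign. On rescaling, Oasl2 (-0.138) and Dtx3l (-0.091) did so in LIF-ESCs and Parp9 (-0.014) and Xaf1 (-0.093) in OSM-ESCs, and with voom on recovered reads Oasl2 (-0.085), Dtx3l (-0.041) and Xaf1 (-0.022). With 1 replicate left out, Oasl2 in LIF-ESCs ranged from -0.012 to 0.101, Cxcl10 in OSM-ESCs from -0.104 to 0.097 and Oas3 between OSM-ESCs and LIF-ESCs from -0.013 to 0.355. The cause was not tested.

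At an adjusted p under 0.05 between OSM-ESCs and LIF-ESCs, 6 members passed in the main fit, among 110 of all genes. At a pseudocount of 0.1, 3 members passed among 62 genes, and without a filter 3 among 81. With a filter of 5 TPM there were 7 among 187, on rescaling 4 among 105 and with voom 38 among 1446. Without a trend 0 members passed among 12 genes, and in a fit of those groups alone no gene passed. Replicate numbers did not pair the libraries, with correlations of the replicate differences from -0.04 to 0.03. With the replicate number as a block, 36 members were higher at an unadjusted p. At an adjusted p, 0 members and 0 of all 18556 genes passed in that fit. Depth limits Mx1, Ifnb1 and the control levels of several members, among them Ifi44, Uba7, Samd9l, Oas1b, Ifit3b, Oasl1, Oas2 and Dhx58. The control values of Uba7 rest on 23 and 26 reads.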
